A study of Mus musculus with 12 samples.

Results

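The TGF-beta ligands, their receptors and the latent TGF-beta binding proteins were followed through a series in which mouse fibroblasts carrying an inducible Ier2 gene were compared with their parental line. The 10 genes are the ligands Tgfb1, Tgfb2 and Tgfb3, the receptors Tgfbr1, Tgfbr2 and Tgfbr3, and the binding proteins Ltbp1, Ltbp2, Ltbp3 and Ltbp4. They were chosen by name, with earlier results of these data known. Each had 1 probe set, and together they make up 10 of the 15780 genes named in the deposited table. RNA was measured on 12 Affymetrix arrays, 3 in each of 4 groups. The inducible cells, 3T3-ind-IER2 #11, are 1 clone of NIH 3T3, an immortalised mouse embryonic fibroblast line, transfected with pNEBR-R1 and pNEBR-Ier2-hygro, so that mouse Ier2 is transcribed when the RheoSwitch ligand RSL-1 (RSL) is present. For the parental NIH 3T3 cells the labels name no plasmid. Each line was given 200 nM RSL or the same volume of the solvent DMSO and harvested after 24 h, and the labels name G418 and hygromycin in the medium of all 4 groups. The labels call the arrays of a group biological replicates but name no cultures, and the p-values below can only speak for the variation among these arrays, part or all of which may be technical.

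TGF-beta is made as a precursor whose propeptide stays attached after cleavage and keeps the ligand latent. A latent TGF-beta binding protein links this small latent complex to fibronectin and fibrillin fibres of the matrix, from which integrins, thrombospondin 1 and proteases can release it. Active ligand binds the type II receptor, Tgfbr2, which phosphorylates the type I receptor, Tgfbr1, which in turn phosphorylates SMAD2 and SMAD3. Tgfbr3, or betaglycan, is a co-receptor that presents ligand, TGF-beta 2 above all. In fibroblasts the pathway is known for raising collagens and contractile proteins.

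Expression values are log2 intensities after normalization, so a difference of 1 is a doubling, and levels are compared between arrays for one gene but not between genes. Differences were tested with limma, with adjustment over all 16475 probe sets tested, and a probe set was called at an adjusted p under 0.05. Ier2, the gene under the switch, went against its label. It read 8.50, 8.48 and 8.66 on the inducible arrays labelled RSL and 9.07, 9.04 and 8.96 on the inducible DMSO arrays, a log2 difference of -0.47 (standard error 0.05, adjusted p = 4.64e-05 from limma). In the parental cells it was 0.17 above DMSO (standard error 0.05, adjusted p = 0.366 from limma) and did not pass. Between the lines, inducible minus parental, the Ier2 difference was 0.45 under DMSO (adjusted p = 3.24e-06 from limma). Between the arrays labelled RSL it was -0.20 (adjusted p = 0.00533 from limma). The position of this probe set on the transcript is not known here, and a probe set that misses the transgene cannot be told apart from an exchange of the RSL and DMSO labels of the inducible arrays. Groups, replicates and effects are therefore named below as labelled, and with exchanged labels the sign of every RSL difference in the inducible cells would turn. Each line comparison would then set arrays of unlike treatment against each other, and the difference of the RSL effects would change too. Of 10 fibroblast markers, 9 lay above the array median on all 12 arrays and Lum, the gene of lumican, below the lower quartile on all 12. Of the 8 markers each of macrophages, epithelium and endothelium, 3, 4 and 5 lay below the lower quartile on every array, and Csf1r, a macrophage growth factor receptor, lay above the median on all 12. Correlations between arrays were 0.998 to 0.999 within a group and 0.991 to 0.993 between the cell lines.

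The promoter sequence next to the start site was read from RefSeq (mouse build GRCm38.p6) for a ligand, a receptor and the 2 binding proteins with the largest differences between the cell lines, to show what motifs stand there. The table held 8 of the 10 genes, with 12 start sites, and Tgfb3 and Tgfbr3 were not among them. The sequences below run 5′ to 3′ on the gene's own strand and leave out any base inside the annotated gene. Capitals mark a match, on either strand, to the SMAD box (CAGAC), the EGR site (GCGTGGG) or the GC box (GGGCGG). The Tgfb1 sequence is chr7:25686752-25687001 on the plus strand, that of Tgfbr2 chr9:116175364-116175613 on the minus strand, that of Ltbp1 chr17:75005279-75005479 on the plus strand and that of Ltbp2 chr12:84876559-84876741 on the minus strand.
Tgfb1: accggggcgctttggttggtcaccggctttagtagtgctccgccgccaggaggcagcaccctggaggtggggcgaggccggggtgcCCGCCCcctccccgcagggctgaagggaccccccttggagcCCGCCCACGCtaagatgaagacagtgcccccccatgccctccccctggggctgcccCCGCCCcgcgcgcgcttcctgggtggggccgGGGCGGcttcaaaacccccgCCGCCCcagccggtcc
Tgfbr2: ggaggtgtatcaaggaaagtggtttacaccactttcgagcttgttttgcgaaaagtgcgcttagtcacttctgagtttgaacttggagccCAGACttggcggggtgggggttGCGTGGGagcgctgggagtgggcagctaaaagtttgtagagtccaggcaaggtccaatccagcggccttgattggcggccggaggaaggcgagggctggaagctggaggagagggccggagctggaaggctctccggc
Ltbp1: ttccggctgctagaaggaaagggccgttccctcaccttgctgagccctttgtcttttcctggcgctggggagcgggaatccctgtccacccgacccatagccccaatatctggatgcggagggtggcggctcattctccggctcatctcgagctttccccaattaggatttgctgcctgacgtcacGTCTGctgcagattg
Ltbp2: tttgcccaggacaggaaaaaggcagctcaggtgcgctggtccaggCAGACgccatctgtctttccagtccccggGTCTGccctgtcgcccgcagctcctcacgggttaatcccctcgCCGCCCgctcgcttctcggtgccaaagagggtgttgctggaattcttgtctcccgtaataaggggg

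The windows searched were the 250 bases before each start site. Tgfb1 had 5 GC boxes and 1 EGR site, which shares 3 bases with a GC box, and no SMAD box. Tgfbr2 had 1 SMAD box and 1 EGR site, and the first start site of Ltbp1 had 1 SMAD box and no other motif. Ltbp2 had 2 SMAD boxes and 2 GC boxes, of which 1 GC box lies inside the annotated gene and is not shown. Over the 12 start sites, a SMAD box was found in 7 (58.3%, against 42.2% of 32851 mouse start sites), a GC box in 6 (50%, against 32.7%) and an EGR site in 4 (33.3%, against 4.3%). A pair of the windows with an EGR site are overlapping windows of Ltbp4 that hold the same site, which is counted once for each window. The windows with an EGR site were 58.4% to 79.2% G and C, against a median of 52.4% over all start sites. The TATA box (TATAAA) was found in 1 window, that of Tgfb2 (8.33%, against 12.4%), and the AP-1 site (TGANTCA) in none, against 6.75% of all start sites. A match is only a match of letters.

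**Figure D1:**
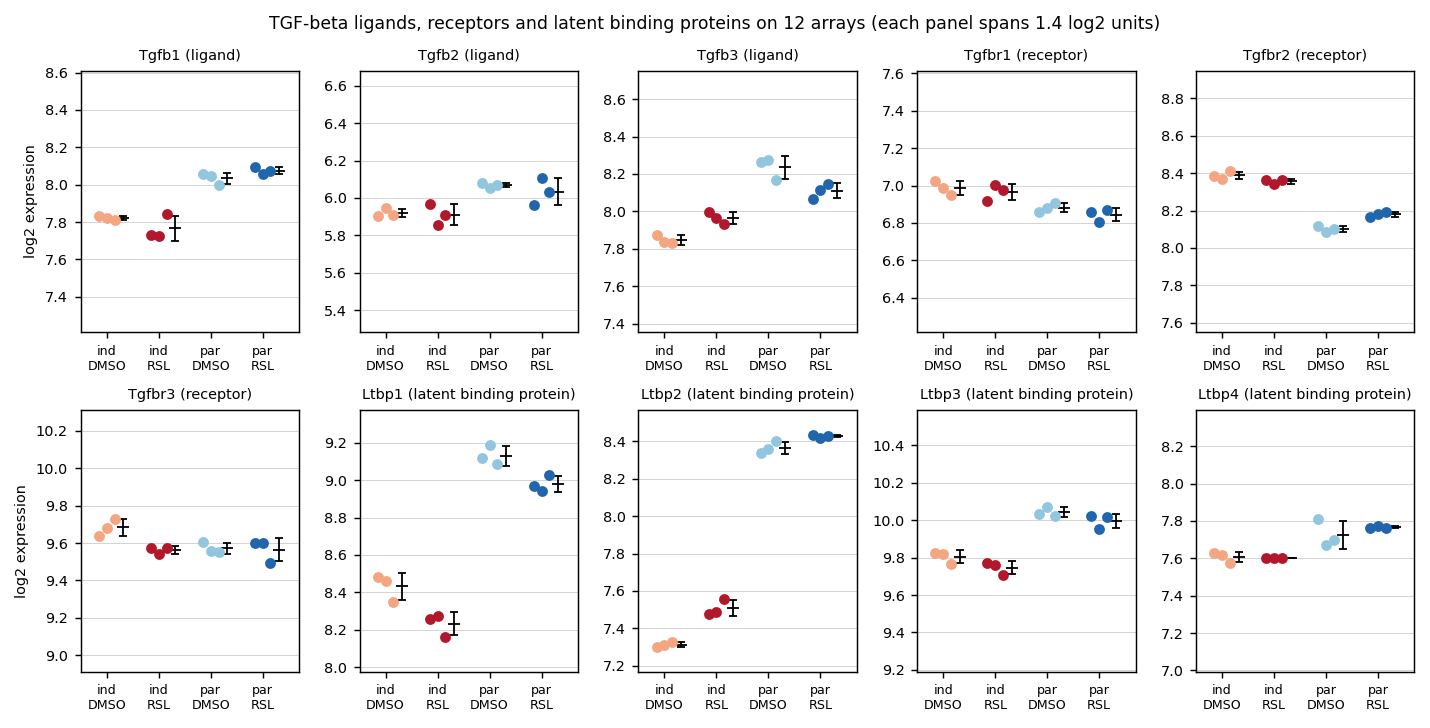
Log2 expression of each of the 10 genes on the 12 arrays. Points are arrays, the bar beside each group is its mean with the SD (n = 3), ind is the inducible clone 3T3-ind-IER2 #11 and par the parental line. Each panel spans the same 1.4 log2 units, so heights can be compared as differences but not as levels between genes. The groups of the 2 cell lines stand farthest apart for Ltbp2 and Ltbp1.

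The comparison of the inducible with the parental cells asks how the clone differs from its parent before and after RSL. Under DMSO, the 3 ligands and the 4 latent binding proteins were lower in the inducible cells and the 3 receptors were higher. Ltbp2 fell to 0.482 times and Ltbp1 to 0.616 times the parental level, while Tgfbr2 rose to 1.22 times. All 10 genes were called, against 29.7% of all probe sets (15.2% higher and 14.5% lower), and for all 10 the arrays of the lines did not overlap, as for 40.2% of all probe sets. The genes were chosen with earlier results of these data known, and the background holds all probe sets without a filter. The shares here and below are therefore descriptions and no test of the genes as a group. The median difference of the 10 genes was -0.18, and that of all probe sets -0.01. Between the arrays labelled RSL, 9 of the 10 were called, against 34.2% of all probe sets (17.5% higher and 16.8% lower), with 7 lower and 2 higher. There 8 of the 10 did not overlap, against 44.5%, and the median difference was -0.15 against -0.02. These comparisons set the same clone against the same parent but share no arrays, and 9 genes were called in the same direction in both, against 23.4% of all probe sets. With the one-way analysis that the methods name, Tgfbr1, Tgfbr3 and Ltbp4 lost their calls under DMSO (adjusted p = 0.0655, 0.0917 and 0.177). Between the arrays labelled RSL, Tgfb2 and Tgfbr1 lost theirs (0.194 and 0.0701). The clone, its transfection and its selection cannot be told apart as sources of a line difference, and in these bulk extracts a lower level in every cell cannot be told apart from a lower level in part of the cells.

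Among the ligands, Tgfb1 (probe set 21803_at), the main TGF-beta of fibroblasts and blood platelets, read 7.83, 7.82 and 7.81 on the inducible DMSO arrays and 8.06, 8.04 and 7.999 on the parental ones. On the arrays labelled RSL it read 7.73, 7.72 and 7.84 in the inducible and 8.10, 8.06 and 8.07 in the parental cells. Every inducible array therefore lay below every parental array. The log2 difference was -0.21 under DMSO (standard error 0.04, adjusted p = 0.000205 from limma) and -0.31 between the arrays labelled RSL (adjusted p = 3.92e-06 from limma). Tgfb3 (21809_at), a ligand best known from palate fusion and scar-free repair, read 7.88, 7.83 and 7.83 on the inducible DMSO arrays and 8.27, 8.27 and 8.17 on the parental DMSO arrays. On the arrays labelled RSL it read 7.996, 7.97 and 7.93 in the inducible and 8.07, 8.11 and 8.15 in the parental cells. The lines did not overlap under either treatment, but the gap narrowed from -0.39 (standard error 0.04, adjusted p = 4.58e-07 from limma) to -0.15 (adjusted p = 0.00516 from limma). The order of its levels was parental DMSO, parental RSL, inducible RSL and inducible DMSO, and neither pair within a line passed the test. Tgfb2 (21808_at), the isoform that depends most on betaglycan, lay below the lower quartile of every group, at the 9th to 15th percentile of the array, so that its level is near the floor of the arrays. It was 5.92 ± 0.02 (SD, n = 3) in the inducible and 6.07 ± 0.01 in the parental DMSO group, a difference of -0.15 (adjusted p = 0.0078 from limma). Between the arrays labelled RSL it was at 5.91 ± 0.06 and 6.03 ± 0.07, with overlapping arrays and a difference of -0.12 (adjusted p = 0.0233 from limma). That call was lost without inducible RSL replicate 2 (adjusted p = 0.115), parental RSL replicate 2 (0.128) or parental RSL replicate 3 (0.051), with quantile normalization repeated (0.0505) and with the 6 arrays labelled RSL fitted alone (0.0502).

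Among the receptors, Tgfbr2 (21813_at), the ligand-binding kinase, read 8.39, 8.37 and 8.41 on the inducible DMSO arrays and 8.12, 8.09 and 8.10 on the parental ones. On the arrays labelled RSL it read 8.36, 8.34 and 8.36 in the inducible and 8.16, 8.18 and 8.19 in the parental cells. All 6 inducible arrays lay above all 6 parental arrays. The difference was 0.29 under DMSO (standard error 0.03, adjusted p = 1.33e-06 from limma) and 0.18 between the arrays labelled RSL (adjusted p = 0.000176 from limma). Tgfbr1 (21812_at), the signalling kinase, was 6.99 ± 0.04 (SD, n = 3) in the inducible and 6.88 ± 0.02 in the parental DMSO group, and 6.97 ± 0.04 and 6.84 ± 0.03 in the groups labelled RSL. Its differences were 0.11 (adjusted p = 0.0293 from limma) and 0.12 (adjusted p = 0.011), with no overlap of the arrays. Neither call held without every array. Under DMSO it was lost without inducible replicate 1 (adjusted p = 0.13) or 2 (0.075) and without parental replicate 1 (0.0877) or 2 (0.0655), and between the arrays labelled RSL without replicate 2 of the inducible (0.054) or the parental cells (0.055). Tgfbr3 (21814_at), or betaglycan, was 9.68 ± 0.05 (SD, n = 3) in the inducible DMSO group, and 9.57 ± 0.03, 9.56 ± 0.06 and 9.56 ± 0.02 in the parental DMSO, parental RSL and inducible RSL groups, of which no pair tested differed beyond its spread. Its difference between the lines was 0.11 under DMSO (adjusted p = 0.0313 from limma) and -0.00 between the arrays labelled RSL (95% interval -0.08 to 0.08). The DMSO call was lost without inducible replicate 2 (adjusted p = 0.0758) or 3 (0.135) and without parental replicate 2 (0.0854) or 3 (0.103), and with quantile normalization repeated (adjusted p = 0.0672).

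The latent binding proteins held the largest differences of the 10 genes. Ltbp2 (16997_at), which binds fibrillin fibres but, unlike its relatives, no latent TGF-beta, read 7.30, 7.31 and 7.33 on the inducible DMSO arrays and 8.34, 8.36 and 8.40 on the parental ones. On the arrays labelled RSL it read 7.48, 7.49 and 7.56 in the inducible and 8.43, 8.42 and 8.43 in the parental cells. The lines were separated by a gap several times wider than the range within any group. The differences were -1.05 under DMSO (standard error 0.03, adjusted p = 3.98e-13 from limma) and -0.92 between the arrays labelled RSL (adjusted p = 1.8e-12 from limma). Ltbp1 (268977_at), the binding protein that carries latent TGF-beta into the matrix of fibroblasts, read 8.48, 8.46 and 8.35 on the inducible DMSO arrays and 9.12, 9.19 and 9.08 on the parental ones. On the arrays labelled RSL it read 8.26, 8.28 and 8.16 in the inducible and 8.97, 8.94 and 9.03 in the parental cells. Within each line the arrays labelled RSL were also the lower ones. The differences between the lines were -0.70 under DMSO (standard error 0.04, adjusted p = 3.82e-09 from limma) and -0.75 between the arrays labelled RSL (adjusted p = 1.43e-09). Ltbp3 (16998_at), needed for TGF-beta signalling in bone and teeth, was 9.80 ± 0.03 (SD, n = 3) in the inducible and 10.04 ± 0.03 in the parental DMSO group, and 9.75 ± 0.03 and 10.00 ± 0.04 in the groups labelled RSL. It was lower in the inducible cells by differences of -0.24 (adjusted p = 4.06e-05 from limma) and -0.25 (adjusted p = 2.28e-05). Ltbp4 (108075_at), a binding protein of elastic fibre assembly, was 7.61 ± 0.03 (SD, n = 3) in the inducible and 7.73 ± 0.08 in the parental DMSO group, and 7.60 ± 0.00 and 7.77 ± 0.01 in the groups labelled RSL. Its differences were -0.12 (adjusted p = 0.0198 from limma) and -0.16 (adjusted p = 0.00198). The DMSO call of Ltbp4 was lost without inducible replicate 3 (adjusted p = 0.0793) or parental replicate 1 (0.108), and with the 6 DMSO arrays fitted alone (0.052). An exact two-sided permutation test over arrays gives 0.1 for each comparison of 3 against 3 arrays without overlap, the smallest p this design allows.

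**Figure D2:**
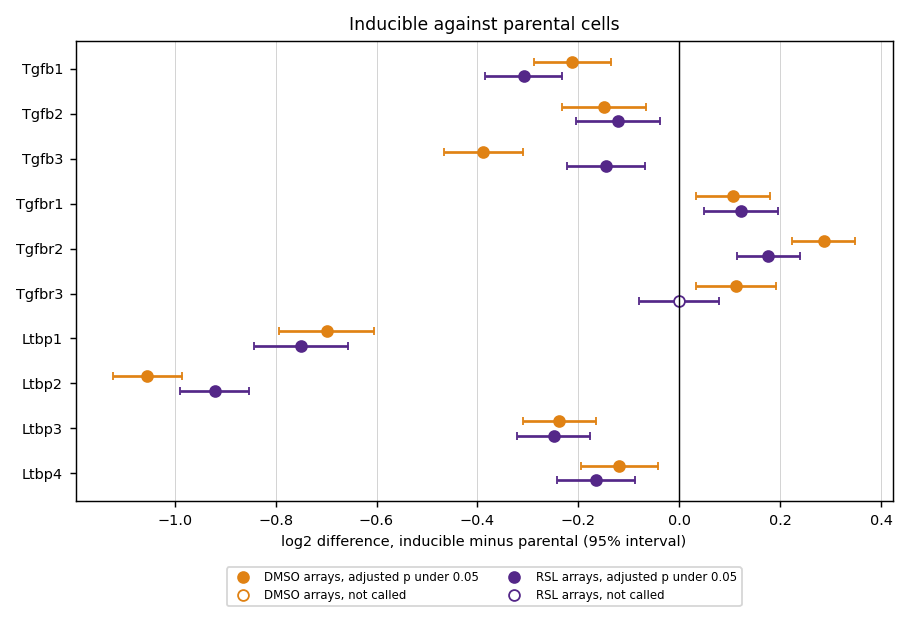
Log2 difference of the inducible from the parental cells for each gene, with 95% intervals from the fit, on the DMSO arrays and on the arrays labelled RSL (3 against 3 each). Filled points were called. Ligands and latent binding proteins lie left of 0, from -0.12 to -1.05, and receptors right of 0 or, for Tgfbr3 between the arrays labelled RSL, at it.

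The other genes of the pathway were read from 6 lists of known regulators, receptors and targets, also chosen with earlier results of these data known. The lists held 103 measured genes. Of these, 36 were higher and 14 lower in the inducible cells under DMSO (48.5% called, against 29.7% of all probe sets), and 38 were higher and 19 lower between the arrays labelled RSL (55.3%, against 34.2%). Over all probe sets, 15.2% were higher and 14.5% lower under DMSO, which is the background of each list count below. Within a list, genes are named in the order of their p. Of 23 genes of latent TGF-beta activation and matrix storage, 8 were higher and 4 lower under DMSO (52.2%). Thbs1, the gene of thrombospondin 1, an activator of latent TGF-beta, was 2.65 higher (adjusted p = 9.6e-14 from limma), and Plat and Plau, the plasminogen activators, were 0.63 and 0.23 higher. Bgn, a small proteoglycan that binds TGF-beta, Tgm2, the transglutaminase that crosslinks latent complexes, and Bmp1, a matrix protease, were at -0.29, -0.26 and -0.28. Of 18 genes of receptor and SMAD signalling (50% called), 4 were higher, among them Cav1 (0.25), the caveolin of receptor turnover, Map3k7 (0.28), the kinase TAK1, and Crebbp (0.28), a coactivator of SMADs. In the same list 5 were lower, among them Dab2 (-0.30), an adaptor of receptor traffic, and Tab1 (-0.22), a partner of TAK1. Of 16 genes in the list of inhibitors (43.8%), 5 were higher, among them the ubiquitin ligase genes Wwp1 (0.39) and Rnf111 (0.26). Rnf111 stands in this list, but its product removes inhibitors and is not itself one. In the same list 2 were lower, the corepressor Tgif1 (-0.43) and Pmepa1 (-0.25), which sequesters SMADs.

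Of 30 target genes of fibroblasts, 13 were higher and 4 lower in the inducible cells under DMSO (56.7%, against 29.7% of all probe sets). Besides Thbs1, Tnc, the matrix protein tenascin C, was 1.59 higher (adjusted p = 1.19e-12 from limma) and Il11, a cytokine of the fibroblast response, 0.50 higher. The collagen genes Col5a1 and Col1a1 were 0.43 and 0.73 higher and the contractile gene Tagln 0.33 higher. Tgfbi, a matrix protein named for its induction by TGF-beta, was lower, at -0.77 (adjusted p = 1.37e-10 from limma). Bgn and Pmepa1, named above, and the collagen gene Col1a2 were lower too, at -0.29, -0.25 and -0.15. Of 12 genes of activin and GDF signals, 4 were higher and none lower (33.3%), and Fstl1, a follistatin-like secreted protein, was at 2.04 times the parental level. Of 14 microfibril and elastic fibre genes, 6 were higher, among them Mfap5 (0.36), a microfibril protein, and Lox (0.32), the crosslinking lysyl oxidase, and 1, Emilin2 (-0.23), was lower (50% called). The list medians ran from -0.04 for receptor and SMAD signalling to 0.07 for the microfibril genes, beside -0.01 for all probe sets. Fibroblast markers moved with the cell line as well, with 4 of 10 higher and 3 lower. Their mean log2 level ran from 10.08 to 10.15 on the inducible and from 10.01 to 10.06 on the parental DMSO arrays, and their part in the line difference was not tested. Of the 8 markers of each other cell type, 1 macrophage marker was higher and 1 lower under DMSO, 2 epithelial markers were higher, and 1 endothelial marker was higher and 1 lower. The mean log2 level of the macrophage markers ran from 6.28 to 6.30 on the inducible and from 6.27 to 6.29 on the parental DMSO arrays, that of the epithelial markers from 6.27 to 6.30 and from 6.19 to 6.26, and that of the endothelial markers from 6.14 to 6.17 and from 6.06 to 6.13. The part of these markers in the line difference was not tested either. Itgb8, Fbn1, Lrrc32, Zfyve9, Smurf2, Gdf11, Gdf15, Mstn and Efemp2 were not analysed here.

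The comparison of RSL with DMSO in the inducible cells was made to ask what induced Ier2 does to these genes, and here rests on arrays labelled RSL on which Ier2 read lower. It shares its DMSO arrays with the line comparison above. The latent binding proteins held both calls. Ltbp2 rose to 1.15 times and Ltbp1 fell to 0.87 times its DMSO level, and the ligands and receptors did not pass. Thus 2 of the 10 genes were called, against 2.54% of all probe sets (1.32% higher and 1.21% lower), and 4 had an unadjusted p under 0.05, against 12.3%. The arrays did not overlap for 5 of the 10, against 18.1%, and the median difference was -0.03 against 0.00 for all probe sets.

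Ltbp2 was above its 3 DMSO arrays (7.30 to 7.33) on each of the 3 arrays labelled RSL (7.48 to 7.56). The difference was 0.20 (standard error 0.03, adjusted p = 0.00289 from limma), and the call held without any 1 inducible array (adjusted p from 0.00844 to 0.0215). Ltbp1 moved the other way, from 8.35 to 8.48 under DMSO to 8.16 to 8.28. Its difference was -0.20 (standard error 0.04, adjusted p = 0.021 from limma). The Ltbp1 call was lost without DMSO replicate 1 (adjusted p = 0.117), DMSO replicate 2 (0.108), RSL replicate 1 (0.0517) or RSL replicate 3 (0.095), with differences of -0.24 to -0.17 over the 6 omissions. With the one-way analysis that the methods name, the calls of Ltbp2 (adjusted p = 0.147) and Ltbp1 (0.321) were both lost. Ltbp3 and Ltbp4 were at -0.06 (95% interval -0.13 to 0.01) and -0.01 (-0.08 to 0.07).

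None of the ligands and receptors passed in the inducible cells. Tgfb3 was at 0.12 and Tgfbr3 at -0.12, both without overlap of the arrays and both at an adjusted p of 0.125 from limma. With array weights Tgfb3 passed, at 0.13 (adjusted p = 0.0385 from limma). Tgfb1 was at -0.05 (95% interval -0.13 to 0.02) and Tgfb2 at -0.01 (-0.09 to 0.08). Tgfbr1 and Tgfbr2 were at -0.02 (-0.09 to 0.05) and -0.03 (-0.09 to 0.03), and only for Tgfbr2 did the arrays not overlap.

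In the parental cells, for which the labels name no switch plasmid, none of the 10 genes passed the limma test between RSL and DMSO, against 0.0303% of all probe sets, and 3 had an unadjusted p under 0.05, against 9.71%. These were Ltbp1, at -0.15 (standard error 0.04, adjusted p = 0.366 from limma), Tgfb3, at -0.13 (adjusted p = 0.366), and Tgfbr2, at 0.08 (adjusted p = 0.433). The arrays did not overlap for 6 of the 10, against 13.3%, and these were the 3 just named with Tgfb1 (0.04), Ltbp2 (0.06) and Ltbp3 (-0.05). The remaining genes, Tgfb2, Tgfbr1, Tgfbr3 and Ltbp4, were at -0.03, -0.04, -0.01 and 0.04.

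The difference of the RSL effects asks whether the inducible cells responded otherwise than the parental ones. Of the 10 genes 1 was called, against 0.662% of all probe sets, and 4 had an unadjusted p under 0.05, against 9.07%. Tgfb3 lay higher on the arrays labelled RSL in the inducible cells, at 0.12, and lower in the parental cells, at -0.13, and neither effect was called by itself. The difference of the effects was 0.24 (standard error 0.05, adjusted p = 0.0405 from limma). This call is weak. It was lost with the replicate number as a block (adjusted p = 0.0801) and without each of 9 of the 12 arrays. These were inducible DMSO replicates 1 (adjusted p = 0.0687), 2 (0.119) and 3 (0.0924), inducible RSL replicates 1 (0.12) and 2 (0.107), parental DMSO replicates 1 (0.0704) and 2 (0.115) and parental RSL replicates 1 (0.126) and 2 (0.0843). The difference itself stayed between 0.22 and 0.28 without any 1 array. With exchanged labels of the inducible arrays, both effects would be negative and of similar size.

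For the binding proteins the same test gave no call. The effect on Ltbp2 was 0.13 larger in the inducible cells (95% interval 0.04 to 0.23, adjusted p = 0.302 from limma), and that on Ltbp1 differed by -0.05 (-0.18 to 0.08, adjusted p = 0.871). Tgfbr2 and Tgfbr3 differed by -0.11 each (adjusted p = 0.381 and 0.539 from limma). Tgfb1 differed by -0.10 (-0.20 to 0.01), Ltbp4 by -0.05, Ltbp3 by -0.01, and Tgfb2 and Tgfbr1 by 0.03 and 0.02.

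**Figure D3:**
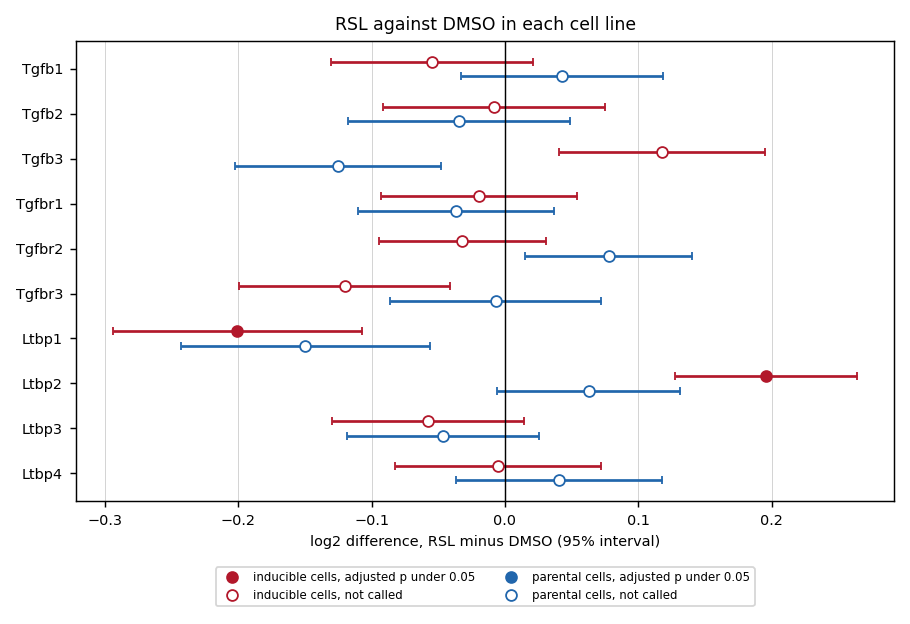
Log2 difference between the arrays labelled RSL and the DMSO arrays for each gene, with 95% intervals from the fit, in the inducible and in the parental cells (3 against 3 arrays each). Filled points were called, which holds for Ltbp1 (-0.20) and Ltbp2 (0.20) in the inducible cells. The intervals of the 2 lines lie on opposite sides of 0 for Tgfb3.

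Of the 103 genes of the 6 pathway lists, 4 were higher and 4 lower on the inducible arrays labelled RSL (7.77% called, against 2.54% of all probe sets, 1.32% higher and 1.21% lower). None passed limma's test in the parental cells, against 0.0303% of all probe sets, and 15 (14.6%) had an unadjusted p under 0.05 there, against 9.71%. Ccn2, the connective tissue growth factor and a target of TGF-beta and YAP, was 0.52 higher in the inducible cells (adjusted p = 3.71e-05 from limma). In the parental cells Ccn2 was at 0.24 (adjusted p = 0.193), and the effects differed by 0.29 (adjusted p = 0.114), which was not called. Aspn, or asporin, a small matrix proteoglycan that binds TGF-beta, was 0.48 higher in the inducible cells. Tpm1, a tropomyosin of stress fibres, and Smad6, an inhibitory SMAD, were each 0.18 higher. Smad7, the other inhibitory SMAD and itself a target of the pathway, was lower, at -0.23 (adjusted p = 0.00378 from limma), as were Junb (-0.20), an immediate early target, Tgif1 (-0.18) and Dab2 (-0.15). The targets thus split, with Ccn2 and Tpm1 higher and Smad7 and Junb lower among 30. Counted by list, 1 of 23 activation and storage genes, 1 of 18 receptor and SMAD genes and 3 of 16 genes of the inhibitor list were called. Of the targets 4 of 30 were called, and none of the 12 activin and GDF or 14 microfibril genes. Smad7 counts in 2 of the lists.

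Of the 8 calls, those of Ccn2, Aspn and Smad7 held without any 1 inducible array. With the one-way analysis that the methods name, all 8 were lost, including Ccn2 (adjusted p = 0.0711), Smad7 (0.0878) and Aspn (0.147). The call of Tpm1 was lost without RSL replicate 1 (adjusted p = 0.0571). That of Junb was lost without DMSO replicate 1 (0.066), RSL replicate 1 (0.068) or RSL replicate 2 (0.0536). That of Smad6 was lost without DMSO replicate 1 (0.104) or 2 (0.0786) or RSL replicate 1 (0.095) or 3 (0.0719), and that of Tgif1 without DMSO replicate 1 (0.167) or 2 (0.0582) or RSL replicate 1 (0.112) or 2 (0.126). That of Dab2 was lost without 5 of the 6 arrays, and its adjusted p was 0.199 and 0.0981 without DMSO replicates 1 and 2, and 0.137, 0.0645 and 0.11 without RSL replicates 1 to 3. With the replicate number as a block, the calls of Dab2 (adjusted p = 0.0727) and Tgif1 (0.0592) were lost, as they were with the 6 inducible arrays fitted alone (0.0645 and 0.0755). Of the differences between the RSL effects of the lines, Aspn (0.45) and Tpm1 (0.29) were called. Both calls were lost with the one-way analysis that the methods name (adjusted p = 0.101 and 0.0545).

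**Figure D4:**
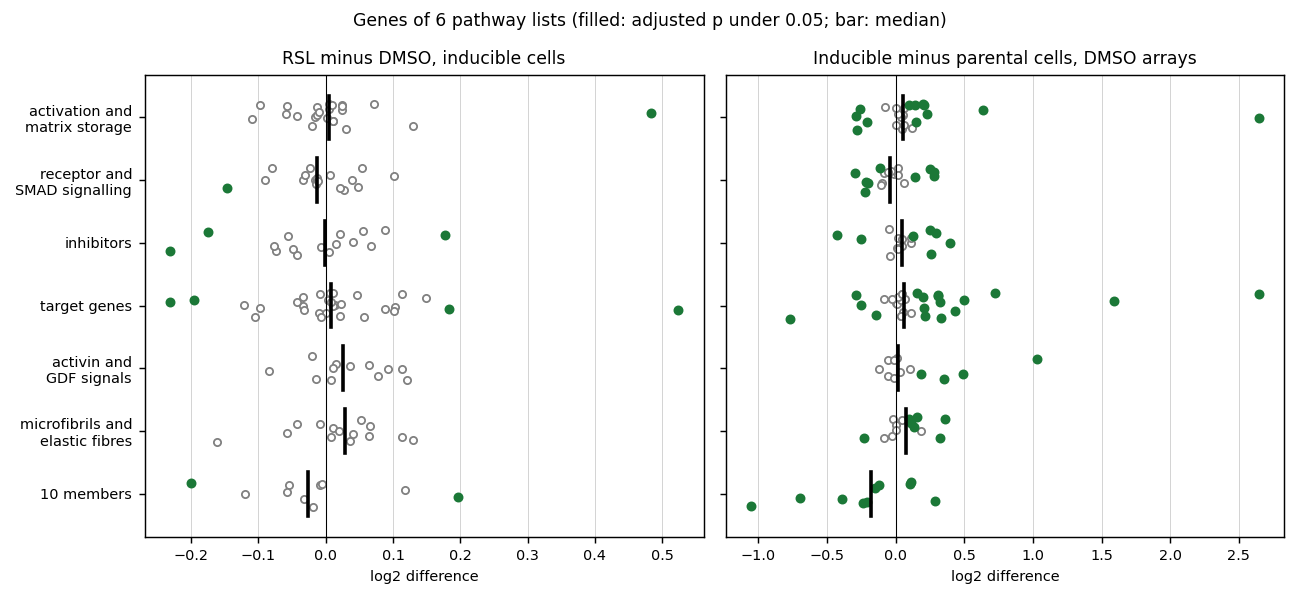
Log2 differences of the genes of the 6 pathway lists and of the 10 genes, for the arrays labelled RSL against DMSO in the inducible cells (left) and for the inducible against the parental cells on the DMSO arrays (right). Points are genes, filled where called, and bars are list medians. The median of the 10 genes, -0.18, lies left of the list medians on the right, which run from -0.04 to 0.07.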

How the data were processed

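The authors deposited 1 table of normalized log2 values for the 12 arrays. Per the methods, a Custom CDF assigned the probes to Entrez genes, and RMA background correction and quantile normalization followed. Quantile normalization makes the arrays share 1 distribution, so a shift of most genes in 1 direction would not be seen, and RMA compresses differences of dim genes. Log base 2 was inferred from the spread of values. How a gene's probes were summarised, the scanner software and any array batches are not stated in the labels or methods. The methods name RNAPure peqGOLD for the extraction and the labels Trizol. Groups and replicate numbers came from the sample labels. The table holds 0 columns from samples outside the series.

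Of 16539 probe sets, 64 hybridization controls were left out and 16475 tested without a filter. Of these, 15780 had 1 gene symbol in the platform annotation and 695 had none. A linear model of 4 group means was fitted to all 12 arrays in limma 3.58.1 (R 4.3.3) with moderated variances and 8 residual degrees of freedom, without a block. The 5 comparisons were RSL against DMSO within each cell line, the difference between those 2 effects, and the clone against its parent under each treatment. P-values were adjusted by Benjamini-Hochberg over all probe sets. The precision of a value is limited by the 3 arrays per group. The fit was tested on simulated data.

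The genes and all gene lists were chosen with earlier results of these data known. All 10 genes were named in every comparison, as was Ier2. From each pathway list at most 6 called genes per direction were named, often fewer, and the rest were counted. For the line comparison between the arrays labelled RSL, the list genes were only counted. Cell types were checked by marker lists. Promoter motifs were counted on both strands in the 250 bases before each RefSeq start site. A planned comparison of the proteins was not run here.

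As alternatives, the fit was rerun with the replicate number as a block, with array weights, with variances that follow intensity, on the arrays of 1 comparison alone, after centring arrays on their medians, after a further quantile normalization, without probe sets in the lowest 40% of mean log2, and without each array in turn. The one-way analysis that the methods name was run with adjusted and with nominal p.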

Additional observations from a re-analysis of the deposited data

Results flagged for a closer look

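The RSL effect differed between the inducible and the parental cells, by the test of the difference itself in limma, for 1 of the 10 genes, for 2 genes of the pathway lists and for Ier2. For Tgfb3 the difference was 0.24 on the log2 scale (adjusted p = 0.0405), with effects of 0.12 in the inducible and -0.13 in the parental cells, and the call was lost with the replicate number as a block (adjusted p = 0.0801) and without each of 9 of the 12 arrays. For Aspn it was 0.45 (adjusted p = 0.00548), with effects of 0.48 and 0.04. For Tpm1 it was 0.29 (adjusted p = 0.009), with effects of 0.18 and -0.11. With the one-way analysis that the methods name, the calls of Aspn (adjusted p = 0.101), Tpm1 (0.0545) and Tgfb3 (0.116) were all lost. For Ier2 it was -0.64 (adjusted p = 0.000262), with effects of -0.47 and 0.17, against the label of the inducible arrays labelled RSL. With exchanged labels of the inducible arrays, each of these differences would change. The cause of these differences was not tested.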

How the results depend on the processing

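Groups share replicate numbers in the labels, but in no pair of groups did every same-numbered pair of arrays deviate together (correlations of deviations from the group means from -0.296 to 0.214), and at most 3 of 6 arrays were closest to their own number. With the replicate number as a block, 330, 4, 76, 4604 and 5314 probe sets were called for the RSL effect in inducible cells, in parental cells, their difference, and the line comparison under DMSO and under RSL, and 2, 0, 0, 8 and 9 of the 10 genes, against 418, 5, 109, 4885 and 5638 and 2, 0, 1, 10 and 9. Of the 10 genes, the calls lost under the block were Tgfb3 in the difference (adjusted p = 0.0801) and, under DMSO, Tgfbr1 (0.0501) and Tgfbr3 (0.0516), and of the 8 pathway genes called for the RSL effect in inducible cells, Dab2 (0.0727) and Tgif1 (0.0592).

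With array weights, 736 probe sets were called for the RSL effect in inducible cells, 106 in parental cells and 375 for the difference, and calls were gained for Tgfb3 in inducible (adjusted p = 0.0385) and Ier2 in parental cells (0.0464). For the effect in parental cells, 8 were called without the lowest 40% of mean log2, 10 with an intensity trend, 8 with quantile normalization repeated and 2 in a fit of the 6 parental arrays. The methods' one-way analysis with adjusted p called 1 probe set and 0 of the 10 genes for the effect in inducible cells, 0 probe sets in parental cells, 31 and 0 for the difference, and 3480 probe sets between the lines under RSL. At nominal p it called 1913 probe sets and 4 genes, 1226 and 4, and 1473 and 3 for the first 3 comparisons. Between the lines it lost, at adjusted p, the calls of Tgfbr1, Tgfbr3 and Ltbp4 under DMSO and of Tgfb2 and Tgfbr1 under RSL. Ltbp4 under DMSO (0.0634) and Tgfb2 under RSL (0.0827) also failed its nominal p. Tgfbr3 changed sign in parental cells with array weights (0.0105) and repeated quantile normalization (0.0126), and between the lines under RSL with the median of each array subtracted (0.00208). Tgfb2 has no value without the dim probe sets.

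Leaving out 1 array in turn, the probe sets called ranged from 204 to 291 for the RSL effect in inducible cells (204, 213 and 227 without DMSO replicates 1 and 2 and RSL replicate 1), from 1 to 7 in parental cells, from 56 to 144 for the difference, from 4132 to 4660 between the lines under DMSO and from 4707 to 5652 under RSL. The genes called ranged from 1 to 2, 0 to 0, 0 to 1, 8 to 9 and 7 to 9. With an arm of 2 arrays, the spread was pooled over the groups. Signs changed for small, uncalled values: in inducible cells Ltbp4 (-0.0213 to 0.00579), Tgfb2 (-0.0373 to 0.0199) and Tgfbr1 (-0.0384 to 0.00413), in parental cells Tgfb2 (-0.0712 to 0.000776) and Tgfbr3 (-0.0247 to 0.029), in the difference Ltbp3 (-0.0331 to 0.00826), Tgfb2 (-0.00894 to 0.063) and Tgfbr1 (-0.00252 to 0.041), and between the lines under RSL Tgfbr3 (-0.0373 to 0.0164). The differences of Ltbp1, Ltbp2, Ltbp3, Tgfb1, Tgfb3 and Tgfbr2 between the lines kept their direction and stayed called under every alternative run. The causes of the changes were not tested. Tgfb2 lies near the floor of the arrays, where signal limits what can be read.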
